A study of Mus musculus with 3 samples.

Results

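The cornified envelope and suprabasal genes followed here are *Sprr1a*, *Sprr3*, *Lor*, *Ivl*, *Ly6d*, *Tgm1*, *Cnfn*, *Krtdap*, *Sbsn* and *Dmkn*, a list drawn up by name from the genes of terminal differentiation in stratified epithelium. The list was chosen with earlier results of these data known, so its counts past 2-fold are no independent test. All 10 genes have a probe set on the array, out of 18193 genes with one, and all 15 of their probe sets were used. Maxillae of ICR mouse embryos at E14, labelled female, were cultured in suspension in BGJb medium. A single Mouse Genome 430 2.0 array was hybridized for each stage, at 5 h of culture before the shelves had fused, at 24 h while they were fusing and at 60 h when fusion was complete. All 3 arrays come from cultured ICR explants for which the labels name no genotype or agent, and no uncultured tissue is among them. The first array holds dissected shelf edges and the later ones midline palate, so stage, hours in culture and piece of tissue cannot be told apart. The study took 5 samples at each stage, and it is not stated whether their RNAs were combined for an array. Without replicates no test was made, and each ratio below is a value without a p-value.

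A stratified epithelium renews itself from a basal layer, and cells that leave this layer switch to suprabasal genes. Late in this course, transglutaminases crosslink precursor proteins beneath the plasma membrane into the cornified envelope, the insoluble shell of the outermost cells. In the embryonic palate, the shelves are covered by a basal layer and a flat outer periderm, and the medial edge epithelium forms a seam that is lost as the shelves fuse. The oral side of the palate later carries a stratified squamous epithelium, and the nasal side a ciliated and secretory one.

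Most of the 10 genes were higher with each later stage. Of the 9 genes above background, 6 were over 2-fold higher in fusing than in unfused tissue, with a median log2 ratio of 1.17 for the 9. After fusion, 8 of 9 were over 2-fold higher than before fusion, with a median log2 ratio of 3.26, and 7 of 9 were over 2-fold higher than during fusion, with a median of 1.41. None was over 2-fold lower in any of these comparisons. Before fusion, 4 of the 9 genes were under background, so their ratios to that stage are lower bounds. The median of 3.26 is itself such a bound, that of *Sprr3*. *Ly6d*, *Krtdap* and *Sprr1a* were 12.8-fold, 7.58-fold and 4.61-fold higher and *Dmkn* at least 9.43-fold higher during fusion, while *Lor* was lower on its brightest probe set and *Ivl* was not measured above background at any stage. In dissected tissue, more cells of a type and more RNA per cell cannot be told apart.

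Signals here are MAS5.0 values, one per probe set on a linear scale, scaled to one trimmed mean. Background was read from 80 probe sets of olfactory, vomeronasal and bitter taste receptors, and the 95th percentile of their scaled signals, called the floor, was 19.4 before, 13.4 during and 14.8 after fusion. A signal under the floor was raised to it, which turns a ratio between a measured and an unmeasured stage into a bound ("at least"), and a ratio is left out where neither side gives one. Over all genes with a signal above it, 5.45% passed 2-fold upward from before to during fusion and 3.18% downward, with a median log2 ratio of -0.02. After against before fusion, these shares were 12.6% and 9.57%, with a median of -0.08. After against during fusion, they were 8.74% and 5.08%, with a median of -0.04. By probe sets, 7 of the 13 of the followed genes that cleared the floor passed 2-fold upward from before to during fusion, against 4.72% of all probe sets. For after against before fusion it was 9 of 12, against 9.7%, and for after against during fusion 8 of 13, against 6.61%. The ratios during and after fusion share the single array before fusion, and a value off on that array would move both. Between probe sets of one gene, the SD of the log2 ratio was 0.37 between the arrays before and during fusion, 0.46 between those before and after it and 0.44 between the later pair. This spread is between probe sets read on the same arrays and says nothing of differences between embryos. Whether it is only technical was not tested.

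**Figure D1:**
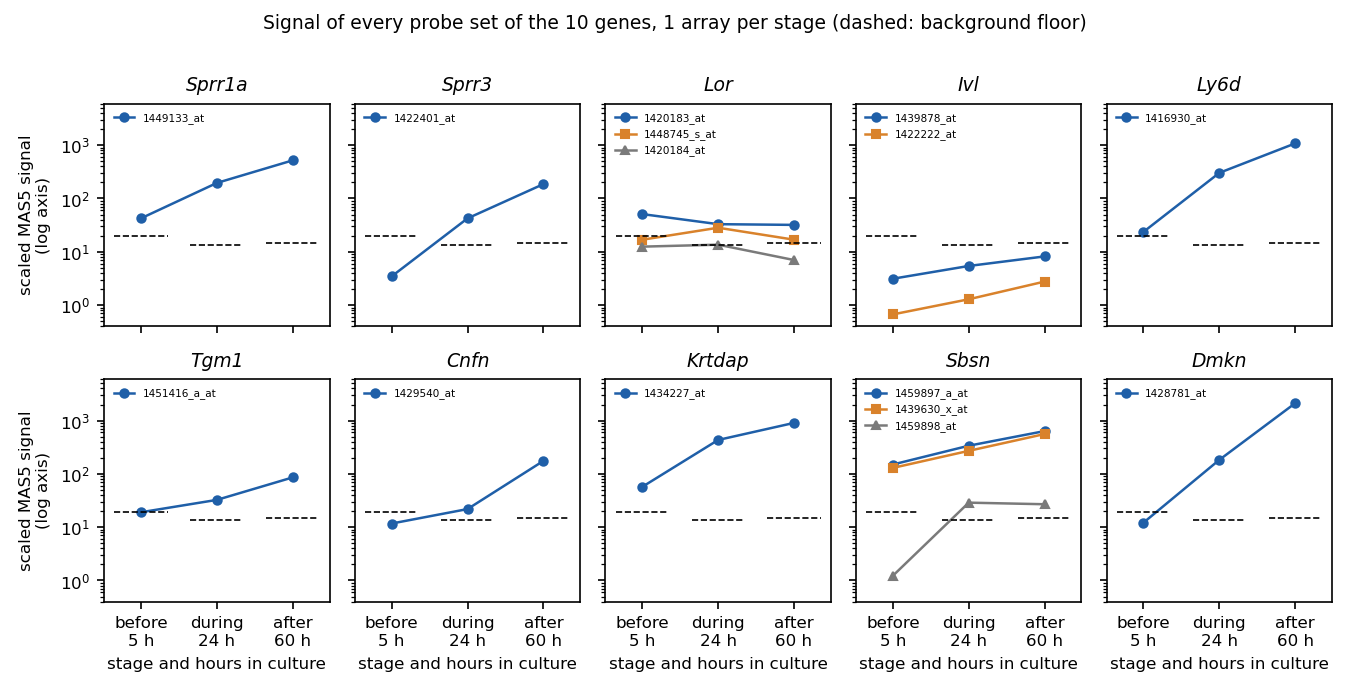
Scaled MAS5.0 signal (log axis) of each of the 15 probe sets against stage and hours in culture, with 1 panel per gene, 1 array per stage, and dashed lines at each array's floor. *Ly6d*, *Dmkn*, *Krtdap*, *Sprr1a*, *Sprr3* and the 2 brighter probe sets of *Sbsn* climb with stage, *Cnfn* and *Tgm1* stand out after fusion, *Lor* stays within 12.5 to 50.9 before fusion and 7.0 to 32.0 after it, and *Ivl* lies under the dashed lines throughout.

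The genes sit mainly in a pair of clusters. *Sprr1a*, *Sprr3*, *Lor* and *Ivl* lie on chromosome 3 in the epidermal differentiation complex, a cluster of genes for envelope precursors, where *Sprr3* and *Sprr1a* are neighbours. *Sbsn*, *Dmkn* and *Krtdap* follow each other directly on chromosome 7, with no other protein-coding gene between them, and *Cnfn* is elsewhere on the same chromosome. *Tgm1* is on chromosome 14 and *Ly6d* on chromosome 15. Promoter windows from RefSeq (GRCm38.p6) were found for 9 of the 10 genes. The windows printed are those with a match to the AP-1 site TGANTCA or to the TATA box TATAAA, both written in capitals. AP-1 factors are dimers of the Jun and Fos families that act on many promoters of keratinocyte differentiation. Each stretch runs 5′ to 3′ on the gene's strand, from 150 bases before the start of transcription to 10 bases from it, and *Dmkn* is shown for the first of its 3 starts.
Sprr1a, chr3:92485872-92486031, minus strand: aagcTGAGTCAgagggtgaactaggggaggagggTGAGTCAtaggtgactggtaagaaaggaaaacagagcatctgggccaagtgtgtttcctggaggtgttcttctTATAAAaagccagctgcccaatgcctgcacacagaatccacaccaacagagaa
Sprr3, chr3:92458711-92458870, minus strand: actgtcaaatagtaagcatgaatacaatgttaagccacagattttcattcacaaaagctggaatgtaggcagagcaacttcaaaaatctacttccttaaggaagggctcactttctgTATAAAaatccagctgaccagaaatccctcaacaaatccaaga
Lor, chr3:92083133-92083292, minus strand: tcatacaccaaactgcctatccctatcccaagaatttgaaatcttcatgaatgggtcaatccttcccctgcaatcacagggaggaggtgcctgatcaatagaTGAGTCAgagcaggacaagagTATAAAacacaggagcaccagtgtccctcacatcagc
Ivl, chr3:92573726-92573885, minus strand: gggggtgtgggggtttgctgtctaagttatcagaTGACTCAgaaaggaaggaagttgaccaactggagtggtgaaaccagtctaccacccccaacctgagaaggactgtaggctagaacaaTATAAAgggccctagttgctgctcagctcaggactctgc
Krtdap, chr7:30787755-30787914, plus strand: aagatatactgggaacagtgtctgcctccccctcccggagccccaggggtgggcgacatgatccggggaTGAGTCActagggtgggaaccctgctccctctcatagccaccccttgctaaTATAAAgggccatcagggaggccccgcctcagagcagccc
Sbsn, chr7:30751321-30751480, plus strand: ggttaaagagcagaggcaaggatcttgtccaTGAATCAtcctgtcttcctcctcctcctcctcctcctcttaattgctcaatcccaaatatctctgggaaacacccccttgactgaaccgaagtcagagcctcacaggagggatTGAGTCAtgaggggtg
Dmkn, chr7:30763606-30763765, plus strand: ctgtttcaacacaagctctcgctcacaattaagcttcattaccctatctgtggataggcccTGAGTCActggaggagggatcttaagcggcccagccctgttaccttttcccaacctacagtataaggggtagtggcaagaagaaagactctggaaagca

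Over the whole windows, of 300 bases (250 before the start and 50 from it) and on both strands, 6 of the 9 genes held TGANTCA, whereas 7.81% of the 32851 RefSeq windows of all genes did. For each motif, a followed gene counted if any of its windows held it, whereas the share of all counts single windows. The match lay at -146 and -116 in *Sprr1a* (first base, counted from the start of transcription), at -48 in *Lor*, -116 in *Ivl*, -81 in *Krtdap*, and -119 and -6 in *Sbsn*. Each of the 3 starts of *Dmkn* had one, at -89, -91 and -82, and the first 2 are the same site seen from neighbouring starts. TATAAA was present in 5 of the 9 genes and in 13.6% of all windows, with its first base at -43 in *Sprr1a*, -33 in *Sprr3*, -27 in *Lor*, -29 in *Ivl* and -30 in *Krtdap*. CCAAT was present in 3 of 9 genes (37.4% of all windows), CACCC, the core bound by Klf factors, in 8 of 9 (57.5%), GCCNNNGGC, the AP-2 site, in *Cnfn* alone of the 9 (16.6%), and AACNGGTT, the Grainyhead-like site, in 0 of 9 (2.09%). TGANTCA was held by *Sprr1a*, *Krtdap*, *Sbsn* and *Dmkn*, which were over 2-fold higher after fusion. It was also held by *Lor*, not over 2-fold higher on its brightest probe set, and by *Ivl*, which has no ratio. *Tgm1*, *Cnfn* and *Sprr3*, over 2-fold higher after fusion, did not hold it in these windows. A match is a string of letters and no evidence of binding, and a missing match says only that these letters are not in this window.

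**Figure D2:**
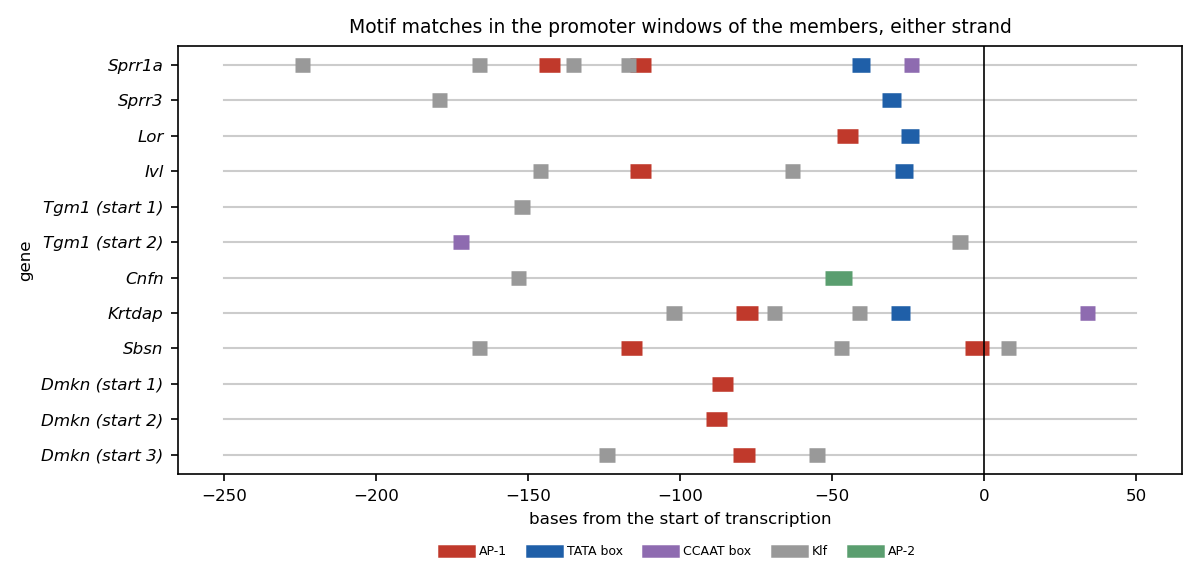
Position of each motif match (coloured block, either strand) in bases from the start of transcription, for the 12 promoter windows of 9 genes; grey lines span the 300 bases of a window. The TATA box blocks fall between -43 and -22 in 5 genes, and AP-1 blocks are seen in *Sprr1a*, *Lor*, *Ivl*, *Krtdap*, *Sbsn* and all starts of *Dmkn*.

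Of the envelope precursors, *Sprr1a* encodes a small proline-rich protein that crosslinks the other precursors. Its only probe set (1449133_at) read 42.5 before, 196 during and 519 after fusion on the scaled signal. It was above the floor at each stage and higher at each later one, 4.61-fold during and 12.2-fold after fusion against before. *Sprr3*, a related protein found mostly in oral and oesophageal epithelium, had signals of 3.46, 42.3 and 186 (1422401_at). It was under the floor before fusion, so its ratios are bounds of at least 2.18-fold during fusion and at least 9.56-fold afterwards. From during to after fusion, where both sides were measured, *Sprr3* was 4.39-fold and *Sprr1a* 2.65-fold higher.

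*Lor* encodes loricrin, the glycine-rich major protein of the epidermal envelope. Its brightest probe set (1420183_at) read 50.9 before, 33.0 during and 32.0 after fusion, a signal 1.55-fold lower in fusing tissue and 1.59-fold lower once fusion was complete. The log2 ratios of this probe set, -0.63 and -0.67, exceed the spread between probe sets, but a second probe set of *Lor* pointed the other way. That one (1448745_s_at, the only *Lor* set paired with a RefSeq transcript, its suffix marking probes shared between transcripts) read 16.8, 28.3 and 16.9. It was at least 1.45-fold higher during than before fusion and 1.68-fold lower after than during fusion. The third (1420184_at) read 12.5, 13.6 and 7.0, above the floor only during fusion and there by little, and gives no ratio. The direction for *Lor* therefore depends on the probe set. None of them gave a ratio or bound as high as 2-fold, but the bound of the second does not exclude it.

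*Ivl* encodes involucrin, an early scaffold of the envelope. Its probe sets read 3.12, 5.42 and 8.19 (1439878_at) and 0.669, 1.29 and 2.76 (1422222_at) before, during and after fusion. All of these lie under the floor, so no ratio is given for *Ivl*, and its RNA was not detectable above background on these arrays. *Cnfn* encodes cornifelin, a small envelope protein. Its signal (1429540_at) was 11.7 before, 21.9 during and 175 after fusion. It was under the floor before fusion, giving at least 1.12-fold during and at least 8.99-fold after fusion. *Cnfn* was 8.0-fold higher after than during fusion. Its ratio in the earlier interval is only a bound, so the intervals cannot be ordered.

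*Tgm1* encodes transglutaminase 1, the membrane-bound enzyme that crosslinks the precursors. Its probe set (1451416_a_at) read 19.1 before, 32.5 during and 85.9 after fusion, the first value just under the floor of 19.4. Against this array the later ones were higher by at least 1.67-fold and at least 4.42-fold. Between during and after fusion it was 2.64-fold higher, and the enzyme's RNA was thus highest after fusion.

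The secreted suprabasal products are encoded by the chromosome 7 neighbours. *Krtdap* encodes keratinocyte differentiation-associated protein, a small secreted protein of the suprabasal layers. It read 57.1 before, 433 during and 904 after fusion (1434227_at), 7.58-fold and 15.8-fold higher than before fusion. *Krtdap* was above the floor at all stages, and was 2.09-fold higher after than during fusion. *Dmkn* encodes dermokine, secreted by suprabasal keratinocytes and made from several transcription starts. Its probe set (1428781_at) read 12.2 before, 183 during and 2117 after fusion. Under the floor before fusion, *Dmkn* was higher by at least 9.43-fold in fusing tissue and by at least 109-fold once fused, and 11.5-fold higher after than during fusion. From during to after fusion, this was the largest ratio of the 10 genes.

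*Sbsn* encodes suprabasin, a secreted protein and transglutaminase substrate. Its brightest probe set (1459897_a_at) read 149.8 before, 337 during and 635 after fusion, and a second (1439630_x_at) read 129, 270.3 and 559. Both were higher at each later stage, 2.25-fold and 2.09-fold during and 4.24-fold and 4.32-fold after fusion against before. From during to after fusion, the ratios were 1.88-fold and 2.07-fold, on either side of the threshold and within the spread between probe sets of each other. The third probe set (1459898_at) read 1.23, 28.8 and 26.9, with bounds of at least 1.48-fold and at least 1.38-fold against the array before fusion. It did not go on to a higher signal after fusion, at 1.07-fold lower than during.

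*Ly6d* encodes a membrane-anchored protein of the Ly6 family found on keratinocytes of stratified epithelia. Its probe set (1416930_at) read 23.6 before, 303 during and 1080.05 after fusion. The signal before fusion was above the floor of 19.4, but close to it. *Ly6d* was 12.8-fold higher during and 45.7-fold higher after fusion, and 3.57-fold higher after than during fusion. Among genes with a ratio, with bounds entered at their bound, it ranked 25th from the highest of 13202 for during over before and 30th of 13577 for after over before fusion. *Krtdap* ranked 46th and 138th and *Sprr1a* 111th and 178th, and *Dmkn*, from its bounds, 35th and 7th. The brightest probe set of *Lor* ranked 11799th for during over before fusion.

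**Figure D3:**
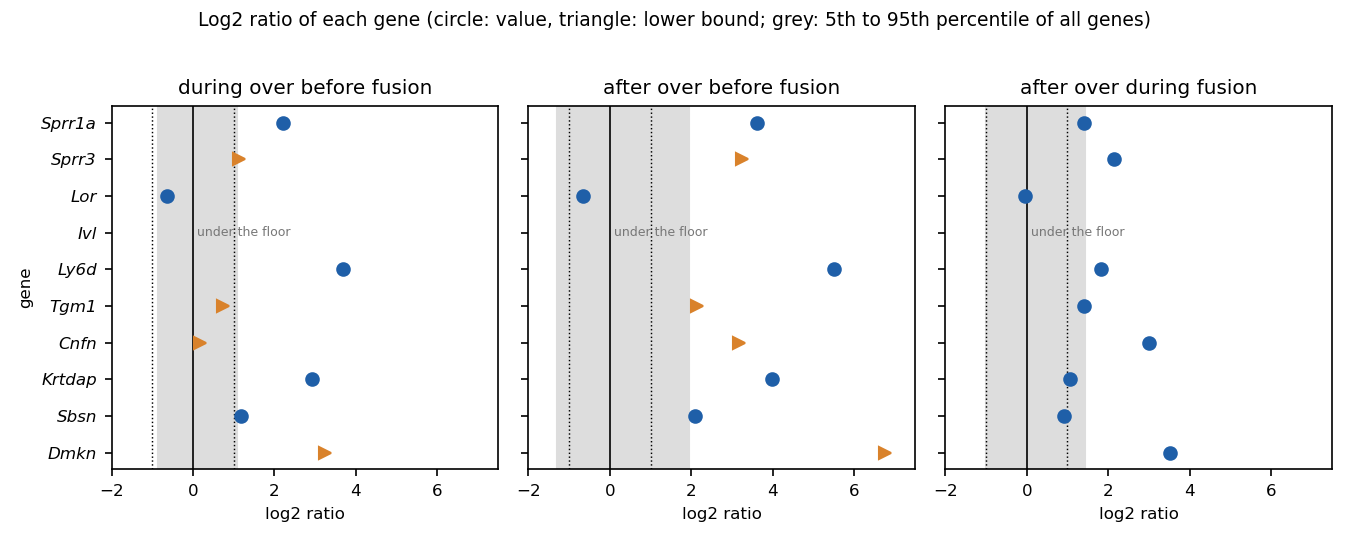
Log2 ratio of each gene's brightest probe set in the 3 comparisons, with circles for values, triangles for lower bounds, a grey band from the 5th to the 95th percentile of all genes above the floor, and dotted lines at 2-fold. For after over before fusion, the 8 genes other than *Lor* and *Ivl* lie to the right of the grey band, which ends at 1.95, between 2.08 (*Sbsn*) and 6.77 (*Dmkn*).

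The intervals between stages could be compared for 4 of the 8 genes that were higher after fusion. From before to during fusion, 19 h apart, *Ly6d*, *Krtdap*, *Sprr1a* and *Sbsn* had log2 ratios of 3.68, 2.92, 2.20 and 1.17, and from during to after fusion, 36 h apart, these were 1.84, 1.06, 1.41 and 0.91. For these 4 the ratio of the earlier interval was the larger, but for *Sbsn* the order did not hold throughout, since its second probe set gave 1.06 and 1.05 and relative to the pan-epithelial markers its ratios were 0.62 and 0.78. *Dmkn*, *Sprr3*, *Cnfn* and *Tgm1* had log2 ratios of 3.53, 2.13, 3.00 and 1.40 in the later interval, and only a bound in the earlier one (at least 3.24, 1.12, 0.17 and 0.74), so that the intervals cannot be ordered for them. All of the first 4 were above the floor before fusion, and all of the second were under it.

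Of the followed genes above the floor at all stages, *Ly6d* had the highest mean signal. Its closest patterns, by distance between log2 ratios to the array before fusion, were sought among 11828 genes above the floor on all 3 arrays. They were *Lyz1*, a lysozyme gene (distance 0.19; 11.2-fold during and 47.0-fold after fusion), *Cbr2*, a carbonyl reductase of the lung (0.43; 17.1-fold and 43.5-fold), the multiciliation gene *Ccno* (0.47; 17.7-fold and 46.2-fold), *1700007K13Rik* (0.53; 10.03-fold and 34.6-fold) and *Upk3a*, a uroplakin (0.67; 18.5-fold and 34.6-fold). None of these 5 is in the lists of stratified epithelium, and *Ccno* is in that of ciliated markers. Genes under the floor before fusion, among them *Dmkn*, *Sprr3*, *Cnfn*, *Tgm1*, *Krt13* and *Krt6b*, were outside this search. With 3 arrays a pattern is only a pair of ratios.

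The rest of the pathway was read from lists without the 10 genes, in order of role. Among other genes of the epidermal differentiation complex (the remaining Sprr, late cornified envelope and filaggrin-like genes), 18 of 31 with a probe set were under the floor on every array. None of the others gave a ratio or bound over 2-fold higher in any comparison, and *Lce1i* was 2.91-fold lower after than before fusion. A bound leaves a larger ratio possible. This holds for *Sprr2k*, at least 1.22-fold higher during than before fusion. It also holds for *Lce3a* and *Kprp*, at least 1.29-fold and 1.23-fold higher after than during fusion. A further 17 of the 48 listed genes have no probe set. The list's median against the array before fusion was 0.04 (log2) during and -0.35 after fusion, medians whose sign changed with the scaling (-0.24 to 0.17 and -0.73 to 0.00). The first rests only on *Sprr2k* (a bound), *Lce1a1*, *Lce1b*, *Lce1i* and *Lce3b*, and the second on the same genes without *Sprr2k*. Their signals were low, at most 43.7 (*Lce1i* before fusion). The other genes gave no ratio to that array, which does not show that they were unchanged. *Sprr1a* and *Sprr3* were thus over 2-fold higher while their neighbours in the complex were mostly undetected. A pair of epidermal keratins was looked up after their values were seen, to set beside *Lor*: *Krt1* read 83.4, 68.4 and 67.7 and *Krt10* read 135.5, 148.4 and 132.5 before, during and after fusion.

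Of 10 suprabasal keratins above the floor, 5 passed 2-fold upward during fusion and 6 after it, with medians of 2.23 and 3.53 on the log2 scale. These medians lie at the edge of a gap between the keratins with high and with low ratios, and were 0.15 and 1.29 with no floor, 0.95 and 1.99 with the mean floor added to both signals, and 2.23 and 1.27 with the median over a gene's probe sets. *Krt13* and *Krt4*, the keratin pair of non-cornifying mucosa, were at least 44.0-fold and 16.8-fold higher after fusion. Among the keratins of stressed or fast-renewing epithelium, *Krt6b* was higher by at least 18.3-fold, *Krt6a* by 11.9-fold and *Krt16* by 11.5-fold after fusion. *Krt80* was 1.04-fold lower during and 2.41-fold higher after fusion.

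Envelope scaffold, crosslinking and inhibitor genes had 5 of 13 over 2-fold higher during and 9 of 15 after fusion against before, with medians of 0.40 and 1.11. After fusion, the desmosomal plakophilin gene *Pkp1* was 5.49-fold, *Calml3* at least 5.34-fold, the desmosomal cadherin gene *Dsg1a* at least 4.07-fold and the serpin gene *Serpinb5* 3.68-fold higher. *Anxa1* (2.16-fold) and periplakin, *Ppl* (2.11-fold), had the smallest ratios past 2-fold. Proteases and inhibitors of the outer layers had 2 higher and 1 lower of 14 during, and 6 of 14 higher after fusion, with medians of 0.78 and 0.98. *Tmprss4* (at least 5.30-fold), *Asprv1*, a protease that cleaves profilaggrin (5.02-fold), *Prss22* (3.23-fold) and *Casp14* (2.13-fold) were higher after fusion, and the kallikrein gene *Klk13* was at least 2.67-fold lower during fusion. *Klk10* was at least 1.82-fold higher after fusion.

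Genes of the barrier lipids had 5 of 14 over 2-fold higher during fusion, and 6 of 14 higher and 1 lower after it, with medians of 0.96 and 0.90. After fusion, *Sptlc3*, of the enzyme that starts sphingolipid synthesis, was 4.08-fold, *Cyp4f39* at least 3.78-fold, the lipoxygenase gene *Alox12e* 3.23-fold and the cholesterol sulfotransferase gene *Sult2b1* 2.96-fold higher. The fatty acid transporter gene *Slc27a4* was 2.34-fold lower. *Cers3*, a ceramide synthase gene, was 2.02-fold higher during and 1.14-fold higher after fusion than before. Among regulators of stratification, 7 of 26 were over 2-fold higher during and 8 of 27 after fusion, with medians of 0.54 and 0.71. *Cebpb* was 6.13-fold, *Zfp750* 4.68-fold, *Ehf* 4.62-fold and *Elf3* 3.93-fold higher after fusion, all of them genes of transcription factors of epithelial differentiation. *Prdm1* was 2.00-fold higher during fusion and 1.02-fold lower after it, and *Gata3* was above the floor only after fusion, at least 1.61-fold higher than before. From during to after fusion, the medians of the lipid and regulator lists were 0.14 and -0.02 and changed sign with the scaling.

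Relatives of *Ly6d* were mixed. Of the other Ly6 family genes, 4 of 16 were over 2-fold higher during fusion, and 7 of 15 higher and 2 lower after it, with medians of 0.70 and 1.10. *Lypd2* was 9.18-fold, *Ly6k* at least 8.46-fold, *Ly6e* 4.08-fold and *Gpihbp1*, the anchor of lipoprotein lipase on capillaries, 3.93-fold higher after fusion. *Lypd6* and *Lypd6b* were 2.88-fold and 2.11-fold lower. From during to after fusion, 0 of 13 other genes of the differentiation complex, 5 of 9 suprabasal keratins, 3 of 15 scaffold genes, 3 of 16 proteases and inhibitors, 1 of 15 lipid genes, 4 of 27 regulators and 3 of 16 Ly6 family genes were over 2-fold higher, beside 7 of the 9 followed genes. Over all genes above the floor, this share was 8.74%. The list totals count every gene above the floor, also one without a ratio. A bound under 2-fold is not counted as higher, though the ratio behind it may pass 2-fold.

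**Figure D4:**
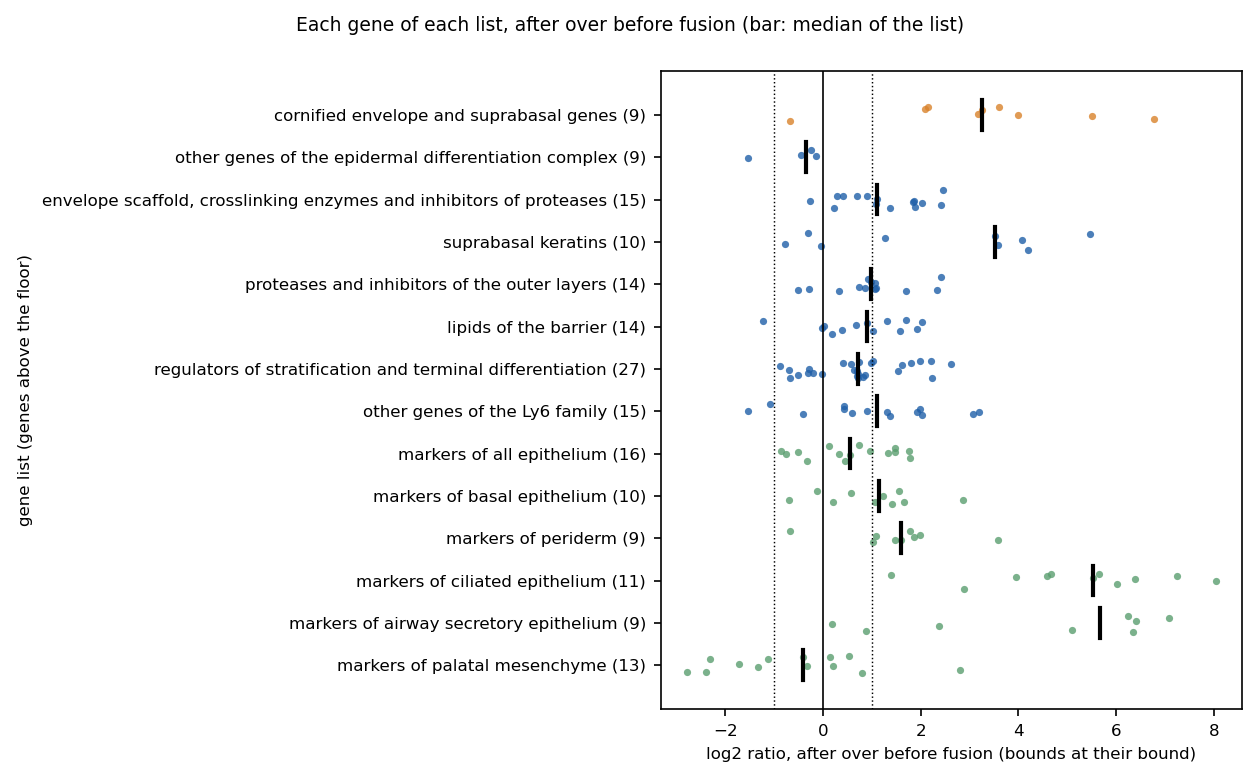
Log2 ratio after over before fusion of each gene with a ratio (points; bounds at their bound), by list, with the number of genes above the floor in brackets, a black bar at the median and dotted lines at 2-fold; orange marks the 10 genes followed, blue their pathway lists and green cell type markers. The median of the followed genes (3.26) lies under those of the ciliated (5.53) and secretory markers (5.67) and above that of the pan-epithelial markers (0.55).

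Markers of cell types moved between the arrays as well. Beside their counts stand the shares of all genes against before fusion, 5.45% upward during, and 12.6% upward and 9.57% downward after fusion. The summed scaled signal of the 16 pan-epithelial markers was 11357 before, 16652 during and 23566 after fusion, and 1 of 16 was over 2-fold higher during and 5 after fusion. Their median log2 ratio was 0.55 in both comparisons with the array before fusion. *Cdh1*, E-cadherin, was 1.27-fold and 1.67-fold higher, *Epcam* 1.55-fold and 1.26-fold, and *Krt8* 1.51-fold and 2.77-fold. Summed over the 10 genes followed here, the signal was 373, 1587 and 5742, or 4.25-fold higher during and 15.4-fold higher after fusion. Such sums also take in signals under the floor and follow the brightest genes. The largest parts of the sum after fusion were *Dmkn* (2117), *Ly6d* (1080) and *Krtdap* (904).

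Basal markers summed to 4874, 11144 and 12723, and 6 of 10 were over 2-fold higher after fusion, among them *Krt5* (7.33-fold), *Krt14* (2.64-fold) and *Krt15* (3.17-fold). Periderm markers summed to 6156, 16113 and 23889, and 8 of 9 were higher after fusion, including *Gabrp* (3.00-fold) and *Krt17* (3.98-fold), with *Krt6a* standing in both this list and the keratins. All 11 ciliated markers were over 2-fold higher after fusion, with sums of 238, 3439.5 and 20084. *Foxj1*, the regulator of motile cilia, was at least 50.4-fold, *Dynlrb2* 262-fold and *Rsph1* 84.1-fold higher. Secretory markers summed to 180.2, 5978 and 13431, with 4 of 9 over 2-fold higher during and 6 of 9 after fusion. *Bpifa1* was 136-fold higher, whereas *Scgb1a1* and *Muc5ac* were under the floor on every array and *Bpifb1* was at least 1.14-fold higher. Mesenchymal markers summed to 34678.5, 28483 and 42411, and 6 of 13 were over 2-fold lower and 1 higher after fusion. Their sum was 1.22-fold higher after than before fusion, whereas their median log2 ratio was -0.42. The first 3 of the list were all lower, *Osr2* 4.98-fold, *Prrx1* 5.23-fold and *Twist1* 1.26-fold, and do not stand for the whole list. The part of these markers' cells in the ratios of the cornified envelope and suprabasal genes was not tested. Relative to the median log2 ratio of the pan-epithelial markers, 4 of the 10 genes remained over 2-fold higher during fusion, 8 after fusion, and 6 from during to after fusion. On its brightest probe set, *Lor* was then over 2-fold lower during and after fusion. Its other probe sets were not read relative to these markers.

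**Figure D5:**
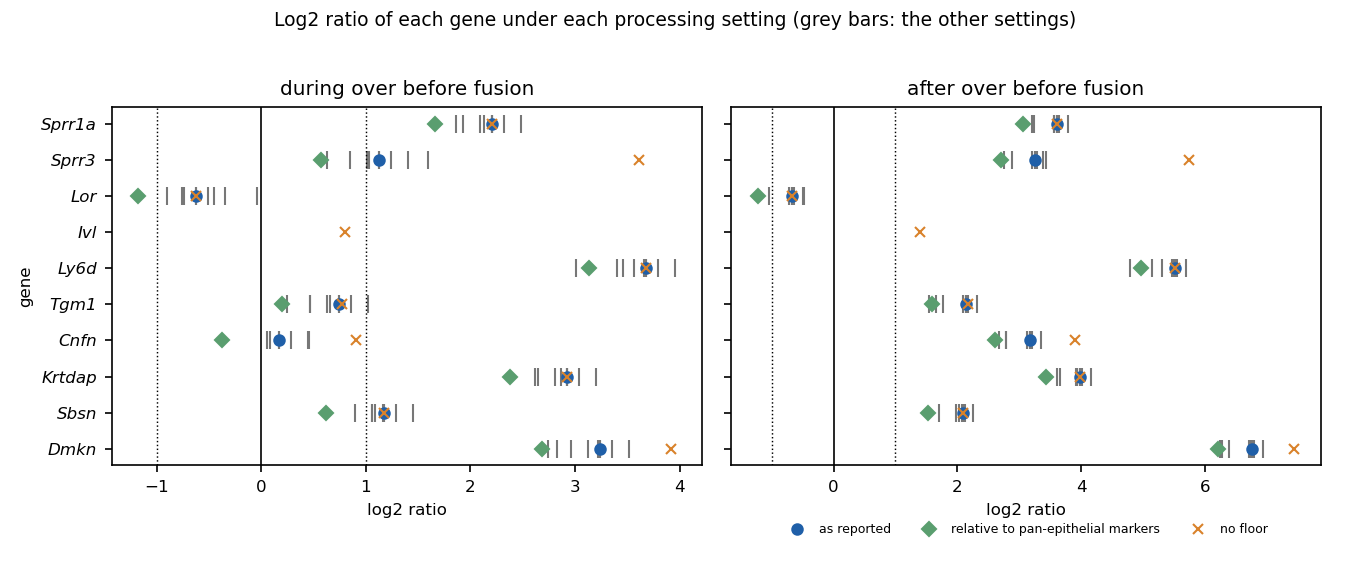
Log2 ratio of each gene during and after over before fusion as reported (circles; bounds at their bound), relative to the pan-epithelial markers (diamonds), with no floor (crosses) and under the other settings (grey bars), with dotted lines at 2-fold. After over before fusion, the 8 genes other than *Lor* and *Ivl* lie at or above 1.53 under all settings drawn, while during over before fusion *Sprr3*, *Sbsn* and *Tgm1* fall on either side of 2-fold and *Cnfn* ranges from -0.38 to 0.90.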

How the data were processed

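RNA of each stage was hybridized to 1 Affymetrix Mouse Genome 430 2.0 array, 3 arrays in all. Sample titles gave the stage, and the study's text the hours in culture. RNA came from a column kit according to the labels and from Trizol according to the study's methods. The authors computed the deposited signal intensities in GeneChip Operating Software with the MAS5.0 algorithm, which corrects the background; each probe set has 1 linear value per array, and no scaling target is given in the sources used here. No comparison of the authors was used.

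Of 45101 probe sets, 64 are controls. Of the other 45037, 34945 name 1 gene, 932 several and 9160 none; gene IDs linked 34741 symbols to RefSeq (GRCm38.p6). The deposited signals had trimmed means (without the top and bottom 2%) of 123.6, 150.0 and 139.7 in order of stage, and arrays were multiplied by 1.11, 0.918 and 0.986. Probe sets above the floor made up 56.8%, 65.6% and 61.4%. A gene was read from its brightest probe set by mean signal. The number of arrays limits the precision. Genes were counted past 2-fold, with the same share over all genes beside them. Named genes are all members, up to 4 genes of each pathway list with the largest and 2 with the smallest ratio after over before fusion among those past 2-fold in a comparison, the first 3 genes of each cell type list and those under the floor throughout, and the 5 genes nearest to *Ly6d*. The members and the 13 lists (250 genes) were chosen with earlier results of these data known. Steps were tested on simulated data. Python 3.11.15, numpy 2.4.6, pandas 2.3.3 and matplotlib 3.10.9 were used.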

Additional observations from a re-analysis of the deposited data

How the results depend on the processing

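Alternatives were other scalings (one median, quantile normalization, hybridization controls, poly-A controls, signals as deposited, relative to the pan-epithelial markers), other floors (none, each array's median, the mean floor added to both signals), other ways to read a gene's probe sets, and a 4-fold threshold. Across 295 log2 ratios of the 10 genes under 11 alternatives, 256 stayed within 1 SD between probe sets, 39 moved further and none past 2-fold changed direction; of 231 values for the 21 ratios past 2-fold, 222 were still past it. Of 72 counts, 68 stayed within 1.5 times. Part of these values had no room to move, so the tallies overstate how stable the ratios were. Leaving out probe sets ending in _x_at or _s_at changed the brightest probe set of none of the 10 genes. The median over a gene's probe sets is fixed for the 7 genes with 1 probe set. Taking away the floor changes nothing where both signals were above it. From during to after fusion, 3 genes were over 4-fold higher, against 7 over 2-fold. *Lor*, read from its brightest probe set, was the 1 gene over 2-fold lower during fusion relative to the pan-epithelial markers, against 0. It was also the 1 lower after fusion with poly-A controls and again relative to the pan-epithelial markers, against 0. The cause was not tested. During fusion, the count of higher genes was 4 with poly-A controls and 7 with signals as deposited, against 6. With no floor, *Ivl* had a log2 ratio of 1.39 after over before fusion, from signals within background. The median of all genes shifted in log2 by -0.12 (one median), 0.11 (hybridization controls), -0.29 (poly-A controls) and 0.27 (as deposited) for during over before, by -0.39 (poly-A controls) and 0.18 (as deposited) for after over before, and by 0.15 (one median) and -0.16 (hybridization controls) for after over during fusion. Over the scalings other than that to the pan-epithelial markers, the median of the 10 genes ran from 1.06 to 1.45, from 2.88 to 3.43 and from 1.24 to 1.55; relative to those markers it was 0.62, 2.70 and 1.27. The floor moved this median as well. Against the array before fusion, it was 1.69 during and 3.76 after fusion with no floor, where *Ivl* is counted too. With the floor at each array's median, it was 1.69 and 2.76. Signals near the floor limit *Tgm1*, *Cnfn*, *Sprr3* and *Dmkn* to bounds. No paired analysis was possible because each stage has 1 array.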
